A study of Homo sapiens with 8 samples.

Results

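A set of 9 genes is described here: CCN1, CCN2, ANKRD1, AMOTL2, THBS1, NID2, SYNM, AJUBA and LATS2, which encode secreted matrix-associated proteins, cytoskeletal proteins and regulators of the Hippo pathway. They are 9 of the 17845 genes measured by a probe set of 1 gene, and each was represented by 1 probe set. They were picked as genes driven by YAP or by TGF-beta, among them genes on which JQ1 and RVX-208 differed in direction or size, so the same log2 values that are given here had a part in choosing them. Their values are therefore a description, and no test is attached to them. Tests are given for 144 other genes of these pathways, whose lists were also chosen with earlier results of these data known.

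The RNA was from HepG2, an established cell line from a human liver cancer that keeps many hepatocyte traits, grown in serum-containing medium and harvested after 4 h. The groups were JQ1 at 500 nM (2 arrays), RVX-208 at 5000 nM (3 arrays) and the solvent DMSO alone (3 arrays). All groups held DMSO at 0.1%, and the doses of the compounds differ. The labels number the arrays within a group but do not say that they came from separate cultures, so the spread and the p-values measure these samples only, which may be technical repeats. JQ1 binds both bromodomains of the BET proteins, which read acetylated chromatin, and RVX-208 (apabetalone) prefers the second one. The authors' table holds log2 signals after RMA, a procedure that corrects background, equalises the distribution of the arrays and summarises the probes of a transcript. Median log2 signals of the arrays lay between 7.27 and 7.31. Arrays carry no read depth, and their number limits the precision. The 9 hepatocyte markers measured had mean log2 signals of 10.6 to 13.6 in JQ1, 10.6 to 13.5 in RVX-208 and 10.5 to 13.4 in DMSO arrays. Fibroblast and stellate cell markers (7 genes) reached at most 6.96 in JQ1, 7.03 in RVX-208 and 7.27 in DMSO arrays, though probe sets of different genes are not calibrated against each other. In RNA of whole cultures, fewer cells that use a gene and less RNA per cell cannot be told apart.

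YAP and its relative TAZ (gene WWTR1) are coactivators that enter the nucleus when the Hippo kinases are idle, bind the TEAD factors on DNA and switch on genes for adhesion, matrix and growth. The kinases MST1 and MST2 oppose this by activating LATS1 and LATS2, which phosphorylate YAP. TGF-beta acts through a pair of receptor kinases and the SMAD factors, and many matrix genes, CCN2 and THBS1 among them, answer to both pathways.

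The 9 genes fell into a few patterns. All JQ1 arrays lay above all DMSO arrays, and all DMSO arrays above all RVX-208 arrays, for 4 of them (CCN1, CCN2, SYNM and AMOTL2), an order that 0.431% of all genes showed. The matrix genes THBS1 and NID2 and the nuclear cofactor gene ANKRD1 were lowest with RVX-208 and intermediate with JQ1, an order that 1.26% of all genes showed. AJUBA was lowest with JQ1 and intermediate with RVX-208, which held for 4.51% of all genes, and LATS2 overlapped between all groups. Since these values were used to pick the genes, nothing is read from the difference to those shares. JQ1 arrays did not overlap with DMSO arrays for 8 of the 9 genes, 4 higher and 4 lower, where 50.4% of all genes did not overlap, 21.3% higher and 29.2% lower. RVX-208 arrays did not overlap with DMSO arrays for 8 of the 9 genes, all lower, where 34.1% of all genes did not overlap, 15.6% higher and 18.5% lower. JQ1 arrays lay above RVX-208 arrays for 7 genes and below for 1, where 42.8% of all genes did not overlap, 20.4% higher and 22.4% lower. The 2 compounds share the same DMSO arrays.

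**Figure D1:**
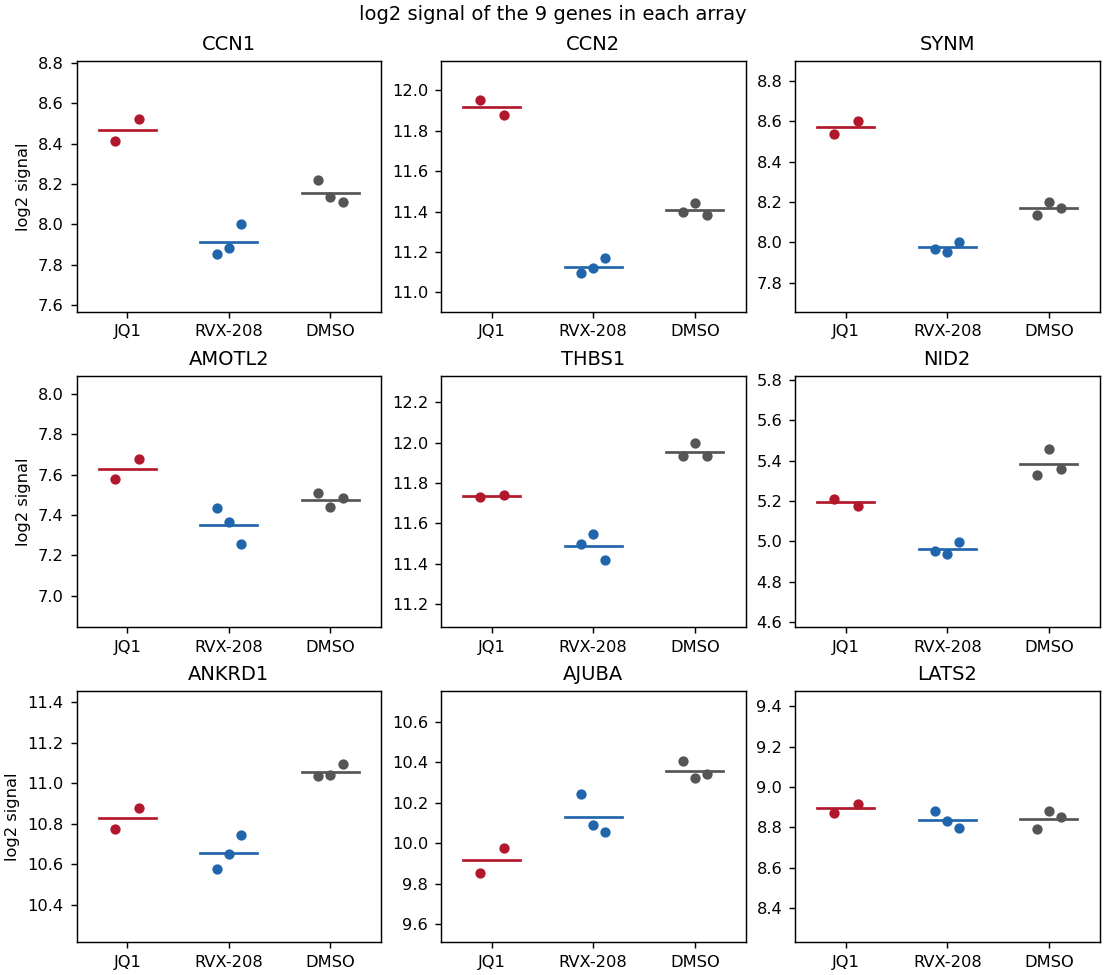
Points are the log2 signals of the 9 genes in each array (2 JQ1, 3 RVX-208, 3 DMSO) and lines are group means; every panel spans the same number of log2 units around its own centre. In the panels of CCN1, CCN2, SYNM and AMOTL2 the JQ1 points lie above the DMSO points and the RVX-208 points below them, and in those of THBS1, NID2 and ANKRD1 both compounds lie below DMSO.

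CCN2 (connective tissue growth factor, probe set 8129562) encodes a secreted matricellular protein that binds integrins and growth factors and is a standard readout of YAP. It stood at 11.95 and 11.88 log2 units in JQ1 arrays, at 11.09, 11.12 and 11.17 in RVX-208 arrays and at 11.40, 11.44 and 11.38 in DMSO arrays. The groups are wide apart relative to their own spread, with SDs of 0.05, 0.04 and 0.03 log2 units. CCN2 was 1.42-fold higher with JQ1 than with DMSO (log2 fold change 0.51 ± 0.05 SE, n = 2 and 3) and stood at 0.824 of the DMSO signal with RVX-208 (−0.28 ± 0.05, n = 3 and 3). Between the arms, whose doses of 500 and 5000 nM differ, JQ1 was 1.73-fold above RVX-208 (0.79 ± 0.05), and 41 of the 17845 genes had a larger value in that direction. With arrays centred on the mean of 9 housekeeping genes, the value of CCN2 with JQ1 was 0.33. Those 9 genes had a median log2 fold change of 0.15 with JQ1 on the authors' scale. CCN2 was the only one of the 9 genes with a fold change of at least 0.5 log2 units against DMSO. Distances between genes were taken over the 8 arrays, on values centred on the DMSO mean. The 3 genes nearest to CCN2 were SYNM (Euclidean distance 0.24 log2 units), CCN1 (0.33) and GPR52 (0.34). GPR52, an orphan receptor gene, stood at 0.36 ± 0.07 with JQ1 and −0.20 ± 0.07 with RVX-208. SYNM and CCN1 belong to the set that these same values helped to choose, so nothing is read from their nearness to CCN2.

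CCN1 (cysteine-rich angiogenic inducer 61, probe set 7902687), another secreted CCN protein and YAP readout, had 8.41 and 8.52 log2 units in JQ1 arrays, 7.85, 7.88 and 8.001 in RVX-208 arrays and 8.22, 8.14 and 8.11 in DMSO arrays. Both JQ1 arrays lie above, and all RVX-208 arrays below, the 3 DMSO arrays. The fold change was 1.24 with JQ1 (log2 0.31 ± 0.07) and 0.845 with RVX-208 (−0.24 ± 0.06). The JQ1 arm was 1.47-fold above the RVX-208 arm (0.56 ± 0.07). Housekeeping centring gave CCN1 a value of 0.14 with JQ1.

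SYNM (synemin, probe set 7986385) is an intermediate filament protein that ties filaments to adhesion sites through vinculin and talin. Its signals were 8.54 and 8.60 in JQ1 arrays, 7.97, 7.95 and 8.0045 in RVX-208 arrays and 8.14, 8.20 and 8.17 in DMSO arrays. Replicates of SYNM were tight: its pooled SD within groups was 0.03 log2 units, and 95.4% of all genes had a larger one. SYNM stood 1.32-fold above DMSO with JQ1 (0.40 ± 0.05) and at 0.875 of DMSO with RVX-208 (−0.19 ± 0.05), and the arms differed 1.51-fold (0.59 ± 0.05). Housekeeping centring gave 0.23 with JQ1 and −0.29 with RVX-208.

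AMOTL2 (angiomotin-like 2, probe set 8090852) encodes a junction scaffold that binds YAP and holds it in the cytoplasm, and is itself a YAP target. It had 7.58 and 7.68 log2 units in JQ1 arrays, 7.44, 7.37 and 7.25 in RVX-208 arrays and 7.51, 7.44 and 7.48 in DMSO arrays. The groups are ordered without overlap, but the highest RVX-208 array and the lowest DMSO array are level to 2 decimals. The log2 fold changes were 0.15 ± 0.07 with JQ1 and −0.12 ± 0.06 with RVX-208, and housekeeping centring gave −0.022 with JQ1 and −0.22 with RVX-208. LATS2 (probe set 7970498), the Hippo kinase that phosphorylates YAP and a further YAP target, had 8.87 and 8.91 in JQ1 arrays, 8.88, 8.83 and 8.80 in RVX-208 arrays and 8.79, 8.88 and 8.85 in DMSO arrays. All 3 groups overlap, with log2 fold changes of 0.05 ± 0.06 with JQ1 and −0.01 ± 0.05 with RVX-208. With housekeeping centring the value with JQ1 was −0.12, that with RVX-208 was −0.11, and that between the arms was −0.017, against 0.06 ± 0.06 on the authors' scale.

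THBS1 (thrombospondin 1, probe set 7982597) is a matricellular glycoprotein that can activate latent TGF-beta. Its signals were 11.73 and 11.74 in JQ1 arrays, 11.50, 11.55 and 11.42 in RVX-208 arrays and 11.93, 11.997 and 11.93 in DMSO arrays. The 3 groups do not overlap, and DMSO is the highest. THBS1 stood at 0.861 of the DMSO signal with JQ1 (−0.22 ± 0.06) and at 0.724 with RVX-208 (−0.47 ± 0.05). With RVX-208, 75 of the 17845 genes had a lower fold change, against 2896 with JQ1. Housekeeping centring gave −0.39 with JQ1.

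NID2 (nidogen 2, probe set 7979133), which links laminin and collagen networks in basement membranes, was dim. It had 5.21 and 5.18 log2 units in JQ1 arrays, 4.95, 4.94 and 5.00 in RVX-208 arrays and 5.33, 5.46 and 5.36 in DMSO arrays. The order of the groups is that of THBS1. The log2 fold changes were −0.19 ± 0.06 with JQ1 and −0.42 ± 0.05 with RVX-208, or 0.877 and 0.748 of the DMSO signal. Cyclic loess normalisation gave −0.12 with JQ1 and −0.33 with RVX-208, and housekeeping centring gave −0.36 and −0.52.

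ANKRD1 (ankyrin repeat domain 1, probe set 7934979) encodes a nuclear cofactor that also binds titin in muscle, and is a strong YAP target. Its signals were 10.78 and 10.88 in JQ1 arrays, 10.58, 10.65 and 10.74 in RVX-208 arrays and 11.03, 11.04 and 11.09 in DMSO arrays. Both compounds lie below DMSO, and the highest RVX-208 array is close to the lowest JQ1 array. ANKRD1 stood at 0.853 of the DMSO signal with JQ1 (−0.23 ± 0.07) and at 0.759 with RVX-208 (−0.40 ± 0.06). Housekeeping centring gave −0.40 with JQ1 and a difference of 0.093 between the arms, against 0.17 ± 0.07 on the authors' scale.

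AJUBA (probe set 7977854) is a LIM-domain protein of adhesion sites that binds and restrains the LATS kinases. It had 9.86 and 9.98 log2 units in JQ1 arrays, 10.24, 10.09 and 10.06 in RVX-208 arrays and 10.41, 10.32 and 10.34 in DMSO arrays. AJUBA is the gene of the 9 that was lower with JQ1 than with RVX-208. Its log2 fold changes were −0.44 ± 0.07 with JQ1 (0.736 of DMSO) and −0.23 ± 0.07 with RVX-208 (0.853 of DMSO).

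Over the 9 genes the median log2 fold change was 0.05 with JQ1, against −0.04 over all genes, and −0.24 with RVX-208, against −0.02 over all genes. The values ran between −0.44 and 0.51 with JQ1 and between −0.47 and −0.01 with RVX-208. With any 1 array left out, no gene of the 9 but LATS2 changed the sign of a fold change: that of LATS2 with RVX-208 ran between −0.03 and 0.01. Without JQ1 replicate 2 the value of AMOTL2 with JQ1 was 0.10, and without RVX-208 replicate 3 its value with RVX-208 was −0.07.

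**Figure D2:**
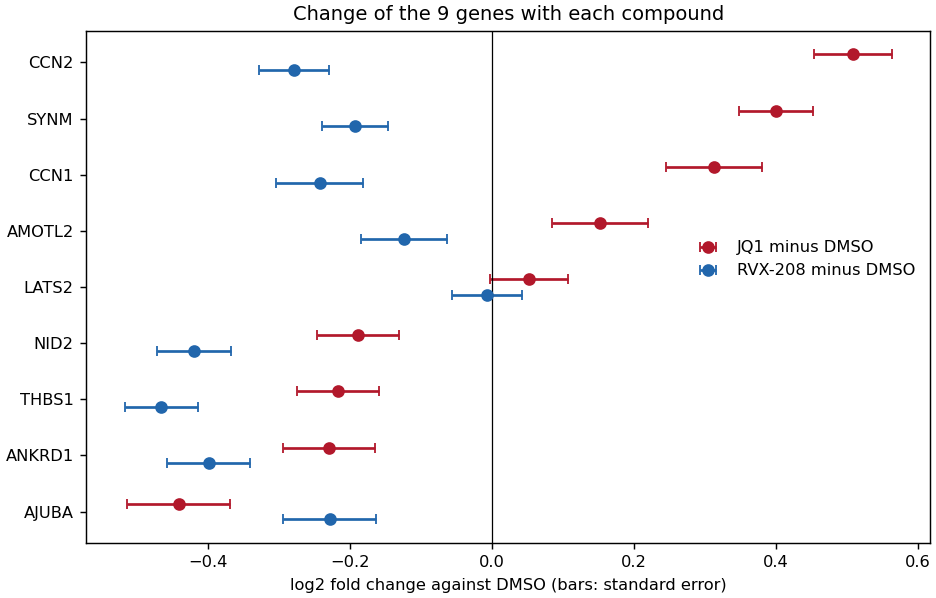
Horizontal positions are log2 fold changes of the 9 genes against DMSO for JQ1 and RVX-208, with bars of 1 standard error. CCN2, SYNM, CCN1 and AMOTL2 lie right of 0 with JQ1 and left of it with RVX-208; NID2, THBS1 and ANKRD1 lie further left with RVX-208 than with JQ1, and AJUBA the other way round.

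YAP reaches DNA through TEAD factors, which bind a short motif. RefSeq promoter windows (GRCh38.p14, 250 bases before to 50 after a start) were matched for 8 of the 9 genes, in 10 windows. The core of the TEAD site, GGAATG, was searched on both strands. It was in 6 of the 10 windows, 1 each of CCN2, ANKRD1, THBS1, AMOTL2, AJUBA and LATS2, and in 4928 of 35116 windows of this length. The SMAD-type core CAGAC was in 8 of the 10 windows and in 45.3% of all. These are letter matches and describe neither binding nor a cause. The windows of 3 genes are shown for the contrast in pattern: CCN2 was higher than DMSO with JQ1 and lower with RVX-208, while ANKRD1 and THBS1 were lower with both. Capitals mark GGAATG.
CCN2, chr6:131951323-131951622, minus strand: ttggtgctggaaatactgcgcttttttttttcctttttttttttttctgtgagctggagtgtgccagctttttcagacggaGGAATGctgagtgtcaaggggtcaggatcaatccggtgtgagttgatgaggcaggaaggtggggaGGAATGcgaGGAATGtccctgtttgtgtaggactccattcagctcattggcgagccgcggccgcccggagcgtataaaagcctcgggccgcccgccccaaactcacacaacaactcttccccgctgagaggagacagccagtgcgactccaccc
ANKRD1, chr10:90921038-90921337, minus strand: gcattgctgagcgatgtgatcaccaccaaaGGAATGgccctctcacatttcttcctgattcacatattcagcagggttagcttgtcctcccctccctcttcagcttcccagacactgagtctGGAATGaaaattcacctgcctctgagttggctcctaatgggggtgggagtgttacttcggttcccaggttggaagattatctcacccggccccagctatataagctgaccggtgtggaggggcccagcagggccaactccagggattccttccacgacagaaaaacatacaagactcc
THBS1, chr15:39580829-39581128, plus strand: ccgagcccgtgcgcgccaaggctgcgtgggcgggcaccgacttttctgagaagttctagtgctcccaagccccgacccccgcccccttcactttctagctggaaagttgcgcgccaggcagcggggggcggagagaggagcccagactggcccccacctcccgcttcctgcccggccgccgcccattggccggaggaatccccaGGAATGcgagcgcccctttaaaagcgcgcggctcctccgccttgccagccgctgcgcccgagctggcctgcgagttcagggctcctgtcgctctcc
The CCN2 window holds 3 such cores, which start 169, 104 and 95 bases before the gene's start, a number that 0.128% of all windows reach. The ANKRD1 window holds 2, at 220 and 128 bases before the start, as 1.37% of windows hold 2 or more, and THBS1 has 1 at 46 bases. All of these read on the strand of the gene. The windows of CCN2 and ANKRD1 both hold more than 1 core, and JQ1 arrays lie above DMSO for CCN2 and below it for ANKRD1. A link between the cores and the direction was not tested. The windows of SYNM and NID2 hold no GGAATG.

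The pathway around the 9 genes was described with 7 lists of other genes, 144 in all, which were tested with limma over all 17845 genes. The lists were chosen with earlier results of these data known, so their counts and shares are a description. With JQ1 at 500 nM, genes of the Hippo and TGF-beta machinery moved in both directions: the kinase gene STK3 rose 0.81 log2 units and the receptor gene TGFBR2 fell by 0.92, while YAP1 and WWTR1 fell by 0.43 and 0.48. With RVX-208 at 5000 nM 6 of the 144 genes were called, TGFBR2 and STK3 among them with smaller values. Of the 144 genes, 37 were called with JQ1 at an adjusted p under 0.05, 14 higher and 23 lower, or 25.7%, against 22.8% of all genes (10.7% higher and 12% lower). With RVX-208, 6 were called, 2 higher and 4 lower, or 4.17%, against 6.28% of all genes (3.06% higher and 3.22% lower). Between the arms, at those unequal doses, 21 differed, 15 higher with JQ1 and 6 lower, or 14.6%, against 10.9% of all genes (4.16% higher and 6.78% lower). With JQ1 and RVX-208 the shares lie near those of all genes. Directions depend on the scale. Housekeeping centring takes the mean change of 9 housekeeping genes off every gene. On the authors' scale 0 of these 9 were below 0 with JQ1 or with RVX-208, with median log2 fold changes of 0.15 and 0.085. With housekeeping centring the 17845 genes had a median of −0.22 with JQ1, −0.12 with RVX-208 and −0.07 between the arms, on the log2 scale. With it, the calls among the 144 genes were 8 higher and 77 lower with JQ1, 1 higher and 46 lower with RVX-208, and 5 higher and 13 lower between the arms. With cyclic loess the RVX-208 calls were 1 higher and 5 lower.

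**Figure D3:**
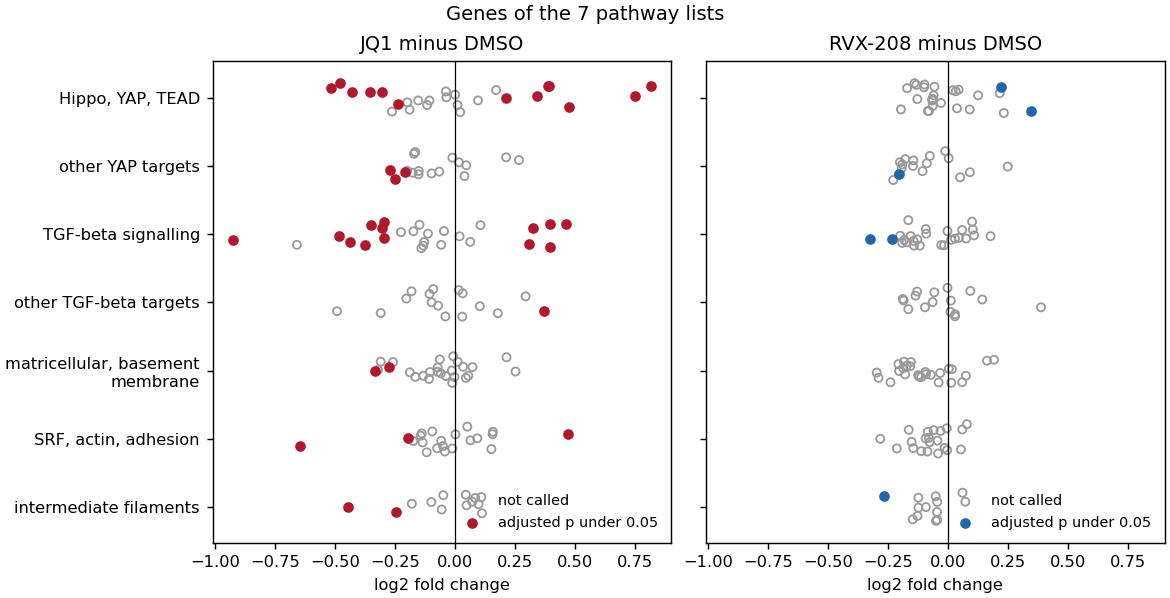
Each point is the log2 fold change against DMSO of 1 gene of the 7 pathway lists, with JQ1 at left and RVX-208 at right; filled points passed an adjusted p under 0.05 in limma and open points did not. Filled points are most numerous with JQ1 in the Hippo and TGF-beta signalling lists, on both sides of 0, and 6 are filled with RVX-208.

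Among Hippo kinases, their regulators, YAP and the TEAD factors, 13 of 26 genes were called with JQ1, 7 higher and 6 lower, against 22.8% of all genes (10.7% higher and 12% lower), and 4 and 15 with housekeeping centring. STK3, which encodes the kinase MST2, had 8.40 and 8.41 log2 units in JQ1 arrays, 7.90, 7.90 and 8.01 in RVX-208 arrays and 7.66, 7.66 and 7.45 in DMSO arrays. The groups do not overlap and JQ1 is the highest. STK3 rose 0.81 ± 0.08 with JQ1 (limma adjusted p = 2.22e-04) and 0.34 ± 0.07 with RVX-208 (adjusted p = 0.0311), and the arms differed by 0.47 ± 0.08 (adjusted p = 0.00697). TAOK3, a kinase that activates MST kinases, rose 0.75 ± 0.08 with JQ1, and SAV1, the scaffold of MST kinases, rose 0.47 ± 0.06. On the other side, YAP1 had 10.75 and 10.77 in JQ1 arrays, 11.19, 11.10 and 11.10 in RVX-208 arrays and 11.15, 11.24 and 11.19 in DMSO arrays. The JQ1 arrays stand clear of the rest, while RVX-208 and DMSO arrays overlap. YAP1 fell by 0.43 with JQ1 (SE 0.06, limma adjusted p = 0.00101), WWTR1 by 0.48 (SE 0.05, adjusted p = 4.51e-04) and WWC1, the gene of the LATS activator KIBRA, by 0.52 (SE 0.06). With RVX-208, YAP1 stood at −0.06 ± 0.05 (95% interval −0.18 to 0.05, adjusted p = 0.427) and WWTR1 at −0.08 ± 0.05 (−0.19 to 0.03, adjusted p = 0.298). The arms differed by −0.36 ± 0.06 for YAP1, −0.40 ± 0.05 for WWTR1 and −0.43 ± 0.06 for WWC1, with limma adjusted p = 0.00515, 0.00263 and 0.00247. MOB1B, which encodes a LATS cofactor, differed between the arms by 0.30 ± 0.08 (limma adjusted p = 0.0392). This call was lost in 6 of 8 fits without 1 array, and with housekeeping centring (0.118). The adjusted p was 0.0756, 0.0636 and 0.108 without RVX-208 array 1, 2 and 3, and 0.0619 without DMSO array 2. Without JQ1 array 1 or 2 the MOB1B difference was 0.36 and 0.23. The calls of STK3, TAOK3, YAP1, WWTR1 and WWC1 with JQ1 and between the arms were kept in all 8 fits without 1 array. The RVX-208 call of STK3 did not hold in 5 of 8 such fits, with limma adjusted p = 0.0610, 0.0734 and 0.111 when RVX-208 array 1, 2 or 3 was left out, and 0.0548 and 0.0759 for DMSO array 2 or 3.

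Of the TEAD factors, TEAD3 fell by 0.35 with JQ1 (SE 0.06, limma adjusted p = 0.00371) and TEAD2 by 0.30 (SE 0.07, adjusted p = 0.0111, and 0.0843 without JQ1 replicate 2). TEAD1 stood at 0.02 ± 0.07 and TEAD4 at −0.19 ± 0.07 with JQ1, and neither passed. Relatives of AMOTL2, LATS2 and AJUBA are in the same list. LATS1 stood at 0.10 ± 0.06 with JQ1 and 0.03 ± 0.05 with RVX-208, AMOT at −0.26 ± 0.11 and −0.20 ± 0.09, and AMOTL1 at −0.04 ± 0.07 and −0.10 ± 0.07, and none of them passed. LIMD1, a LIM-domain relative of AJUBA, stood at −0.20 ± 0.06 with JQ1 (limma adjusted p = 0.0508). WTIP, another, fell by 0.24 with JQ1 (SE 0.07, adjusted p = 0.0300), but its adjusted p was 0.193 when JQ1 array 2 was left out, and 0.0757 and 0.0780 for DMSO array 2 or 3.

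TGF-beta ligands, receptors, SMADs and regulators likewise had 13 of 26 genes called with JQ1, 5 higher and 8 lower, against those same 22.8% of all genes, and 3 and 17 with housekeeping centring. The type II receptor gene TGFBR2 had 10.56 and 10.68 log2 units in JQ1 arrays, 11.26, 11.16 and 11.23 in RVX-208 arrays and 11.54, 11.56 and 11.54 in DMSO arrays. All groups are separate, and JQ1 is the lowest. TGFBR2 fell by 0.92 with JQ1 (SE 0.06, limma adjusted p = 3.85e-05) and by 0.33 with RVX-208 (SE 0.05, adjusted p = 0.0201), and the arms differed by −0.60 ± 0.06 (adjusted p = 7.67e-04). The RVX-208 call of TGFBR2 did not hold when RVX-208 array 2 or 3 (limma adjusted p = 0.0611 and 0.0774) or DMSO array 2 or 3 (0.0526 and 0.0638) was left out. The type I receptor gene TGFBR1, its signalling partner, rose 0.46 ± 0.07 with JQ1 (adjusted p = 0.00193). BAMBI, a decoy receptor, rose 0.40 ± 0.06 and SKI, a SMAD corepressor, rose 0.39 ± 0.07. SMAD7, the inhibitory SMAD, had 7.17 and 7.29 in JQ1 arrays, 7.81, 7.65 and 7.75 in RVX-208 arrays and 7.67, 7.72 and 7.60 in DMSO arrays. It fell by 0.44 with JQ1 (SE 0.07, limma adjusted p = 0.00270), stood at 0.07 ± 0.06 with RVX-208, and differed between the arms by −0.51 ± 0.07 (adjusted p = 0.00299). ACVR2B, an activin receptor gene, fell by 0.48 with JQ1 (SE 0.10), a call that was lost without JQ1 replicate 2 (adjusted p = 0.0596). BAMBI differed between the arms by 0.41 ± 0.06 (limma adjusted p = 0.00302).

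**Figure D4:**
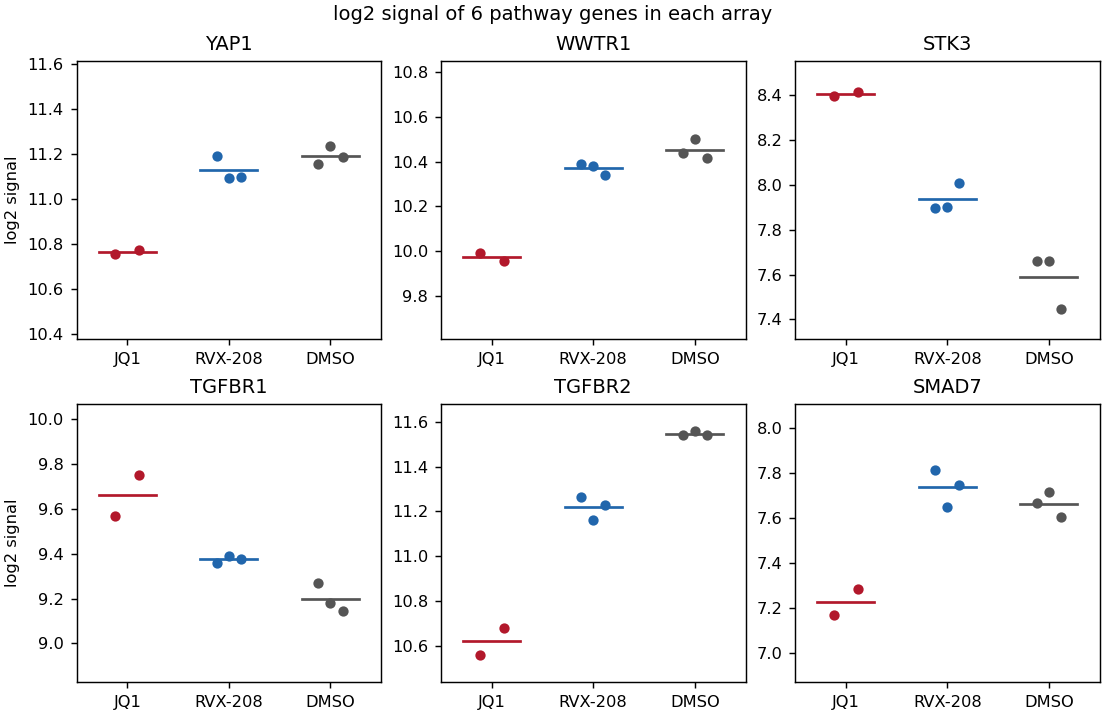
Points are log2 signals of YAP1, WWTR1, STK3, TGFBR1, TGFBR2 and SMAD7 in each array of JQ1, RVX-208 and DMSO, and lines are group means; every panel spans the same number of log2 units. The JQ1 points of YAP1, WWTR1, TGFBR2 and SMAD7 lie below all others, and those of STK3 and TGFBR1 above all others.

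Of 17 other YAP targets 3 (17.6%) were called with JQ1, all lower, against 22.8% of all genes called and 12% lower, with 0 higher and 10 lower after housekeeping centring. They were the matrix gene CCDC80 (−0.27 ± 0.06), the transcription factor gene FOXF2 (−0.25 ± 0.06) and the tissue factor gene F3 (−0.21 ± 0.06). CCDC80 was dim, with a mean log2 signal of 4.67, and its limma adjusted p was 0.0673 with a variance trend and robust fit. F3 also lost its call with that fit (0.0507), and with cyclic loess (0.0907). The same held for F3 with replicate numbers as blocks (0.0595) and with only the JQ1 and DMSO arrays fitted (0.0734). CCDC80 lost its call without JQ1 replicate 2 (limma adjusted p = 0.0720), FOXF2 without JQ1 replicate 1 (0.0742) or 2 (0.0549), and F3 when either JQ1 array (0.0795 and 0.137) or DMSO array 1 (0.0672) or 2 (0.0692) was left out. GADD45A, a stress gene in this list, was 0.36 ± 0.08 higher in the JQ1 arm than in the RVX-208 arm (limma adjusted p = 0.0189), a call lost when JQ1 array 2 (0.125) or RVX-208 array 2 (0.0635) or 3 (0.0553) was left out, and with housekeeping centring (0.0533). The median log2 fold change of the 17 genes was −0.15 with JQ1, against −0.04 over all genes, and −0.14 with RVX-208, against −0.02 over all genes. Of 16 other TGF-beta targets, 1 was called with JQ1, the AP-1 gene JUNB (0.37 ± 0.08, limma adjusted p = 0.00981), and its call was lost with housekeeping centring (0.0821) and without JQ1 replicate 1 (0.0815). With housekeeping centring 0 of the 16 were higher and 7 lower with JQ1. With RVX-208 limma called 0 of the 16, with an unadjusted p under 0.05 for 4. Over all genes limma called 22.8% with JQ1 and 6.28% with RVX-208, where 4987 of 17845 had an unadjusted p under 0.05.

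Of 26 matricellular and basement membrane genes 2 (7.69%) were called with JQ1, both lower, against 22.8% of all genes called and 12% lower. With RVX-208 limma called 0, against 6.28% of all genes. There, 9 of the 26 and 4987 of all 17845 genes had an unadjusted p under 0.05 in limma. With housekeeping centring 12 were lower with JQ1 and 9 with RVX-208. The called genes were SMOC1, a SPARC relative (−0.33 ± 0.05, limma adjusted p = 0.00253), and the laminin chain gene LAMB1 (−0.27 ± 0.06, adjusted p = 0.0104, and 0.0823 without JQ1 replicate 1). NID1, the paralog of NID2, stood at −0.01 ± 0.06 with JQ1 and −0.16 ± 0.06 with RVX-208 (limma adjusted p = 0.952 and 0.117). THBS2, the closest relative of THBS1, stood at 0.21 ± 0.09 with JQ1 and −0.09 ± 0.08 with RVX-208, and THBS3 at −0.04 ± 0.10 and 0.16 ± 0.09; none of these passed. Among CCN genes, CCN3 stood at −0.0023 ± 0.10 with JQ1 and −0.30 ± 0.09 with RVX-208, and CCN4 at −0.26 ± 0.10 and −0.21 ± 0.09. CCN5 stood at −0.10 ± 0.07 with JQ1 and −0.24 ± 0.07 with RVX-208, and CCN6 at −0.17 ± 0.12 and −0.16 ± 0.11. None of these 4 passed in either comparison, with limma adjusted p-values of 0.0632 and higher. HSPG2, the gene of the basement membrane proteoglycan perlecan, was 0.38 ± 0.08 higher in the JQ1 arm than in the RVX-208 arm (adjusted p = 0.0230), a call lost when JQ1 array 1 (0.0753) or 2 (0.137) or RVX-208 array 1 (0.0587) or 3 (0.0705) was left out.

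Among SRF, actin and focal adhesion genes 3 of 21 (14.3%) were called with JQ1, 1 higher and 2 lower. Over all genes 22.8% were called (10.7% higher and 12% lower). With housekeeping centring 1 of the 21 was higher and 11 lower. VCL, which encodes vinculin, a partner of synemin at adhesion sites, had 9.72 and 9.76 log2 units in JQ1 arrays, 9.31, 9.26 and 9.21 in RVX-208 arrays and 9.30, 9.28 and 9.22 in DMSO arrays. The JQ1 arrays stand above the rest, and RVX-208 and DMSO arrays overlap. VCL rose 0.47 ± 0.06 with JQ1 (limma adjusted p = 6.25e-04) and differed between the arms by 0.48 ± 0.06 (adjusted p = 0.00152). FHL2, a LIM-domain cofactor gene, fell by 0.65 with JQ1 (SE 0.09, adjusted p = 0.00122). TRIP6, a LIM-domain adhesion gene, fell by 0.20 (SE 0.05, limma adjusted p = 0.0223). With JQ1 array 1 or 2 left out it fell by 0.20 and 0.19 and was not called. Without DMSO array 3 its adjusted p was 0.0555. The call was also lost with cyclic loess (0.0755) and with a variance trend and robust fit (0.0636). With replicate numbers as blocks it was 0.0838, and with only the JQ1 and DMSO arrays fitted 0.0661. TLN1, the gene of talin, another partner of synemin, differed between the arms by 0.27 ± 0.06 (limma adjusted p = 0.0194). This call was kept in 4 of 8 fits without 1 array, and lost with housekeeping centring (0.104). The adjusted p was 0.0634 and 0.0626 without RVX-208 array 2 and 3. Without either JQ1 array the call was lost too, with a difference of 0.27 in both fits. MYH9, the gene of a non-muscle myosin heavy chain, differed between the arms by 0.25 ± 0.06 (limma adjusted p = 0.0375). It kept its call in 2 of the 8 fits, and lost it with housekeeping centring (0.135). The adjusted p was 0.0702, 0.0854 and 0.111 without RVX-208 array 1, 2 and 3, and 0.0539 without DMSO array 1. Without JQ1 array 1 or 2 the MYH9 difference was 0.28 and 0.21. With RVX-208 limma called 0 of the 21 genes, with an unadjusted p under 0.05 for 3. Over all genes it called 6.28%, with an unadjusted p under 0.05 for 4987 of 17845. Of 12 intermediate filament genes 2 (16.7%) were called with JQ1, against 22.8% of all genes. They were KRT23 (−0.45 ± 0.06) and LMNB1 (−0.25 ± 0.05), both lower, and 5 of the 12 were lower with housekeeping centring. The call of LMNB1 was lost without JQ1 replicate 1 (limma adjusted p = 0.0776). PLEC, the gene of the filament linker plectin, differed between the arms by 0.21 ± 0.05 (limma adjusted p = 0.0392). It kept its call in 1 of 8 fits without 1 array, that without DMSO replicate 3. The adjusted p was 0.0593, 0.103 and 0.117 without RVX-208 array 1, 2 and 3, and 0.0509 and 0.0639 without DMSO array 1 and 2. With housekeeping centring it was 0.235. Without JQ1 array 1 or 2 the PLEC difference was 0.21 and 0.20. VIM, DES and NES, filament genes that synemin can assemble with, stood at −0.06 ± 0.09, −0.05 ± 0.06 and 0.05 ± 0.09 with JQ1, and none of them passed.

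The 6 genes called with RVX-208 were STK3, SAV1 (0.22 ± 0.05), TGFBR2, KRT23 (−0.27 ± 0.05), the latent TGF-beta binding protein gene LTBP1 (−0.23 ± 0.05) and FOXF2 (−0.20 ± 0.05). LTBP1 was dim, with a mean log2 signal of 5.65. The number called among the 144 genes was 0 with RVX-208 array 2 or 3 or DMSO array 2 or 3 left out, 1 with RVX-208 array 1 and 2 with DMSO array 1 left out, and 5 with either JQ1 array left out. FOXF2, LTBP1 and SAV1 lost their call in all 8 of these fits, so 3 of the 5 genes called without a JQ1 array are among the 6 (TGFBR2, STK3 and KRT23). It was 18 with a variance trend and robust fit, and 16 over genes with a mean log2 signal of at least 6. Of the 7 fibroblast and stellate cell markers, PDGFRB was called lower with JQ1 (−0.30 ± 0.06) and with RVX-208 (−0.24 ± 0.05), against 22.8% and 6.28% of all genes called. Fold changes were below 0 for 6 of the 7 with JQ1 and for 7 with RVX-208, against 59.1% and 56.1% of all genes. Of 5 endothelial markers, 5 were below 0 with JQ1, of which TEK was called (−0.41), and 3 with RVX-208, 0 of them called by limma, with an unadjusted p under 0.05 for 2. TEK was dim, with a mean of 4.48 log2 units in JQ1 arrays. The part of these markers in the values of the matrix genes was not tested.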

How the data were processed

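The authors deposited log2 signals of 19816 probe sets on Affymetrix Human Gene ST arrays, made with RMA in R 2.15.3, and tested with limma 3.14.4, per the submitters' processing notes. How the probe sets were selected is not given in the sources used here. The authors' deposited table also holds log2 fold changes, an F score and p-values; its log2 fold changes equalled those computed here to within 0.0001 for 19815 of 19816 probe sets. A further JQ1 sample is not analysed here.

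Of the probe sets, 17859 had 1 gene symbol, 997 several and 960 none in the platform annotation, leaving 17845 genes after the brightest probe set was kept for 14 genes with more than 1. Groups were taken from the sample labels. One limma 3.58.1 model (R 4.3.3) over all 8 arrays gave log2 fold changes, standard errors, 95% intervals and Benjamini-Hochberg adjusted p-values over all 17845 genes (8.55 moderated degrees of freedom, threshold 0.05). The fit was tested on simulated data in which 200 of 17845 genes changed, fewer than were called here. Of changes of 0.3 log2 units it called 17.4% with JQ1 and 31.4% with RVX-208. Of changes of 0.6 it called 91.8% and 95.1%. A gene that did not pass may thus still have changed. Tables and plots used Python 3.11.15, pandas 2.3.3 and matplotlib 3.10.9. Arrays give no read depth, so their number sets the precision.

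The members and lists were chosen with earlier results of these data known. The named pathway genes are, in each list and comparison, up to 3 called genes with the largest rise and up to 3 with the largest fall, plus direct relatives of the members, YAP1, WWTR1 and the TEAD genes; VIM, DES, NES, PDGFRB and TEK were added after their values were seen. For members with a fold change of at least 0.5 log2 units against DMSO, the 3 nearest genes were named. The labels do not say whether replicate numbers pair the samples. Same-numbered arrays' deviations from group means correlated between −0.15 and 0.0756 (7 pairs), others between −0.0785 and 0.0802 (14 pairs). Deviations within groups of 2 or 3 arrays constrain each other, so these correlations cannot exclude a pairing. Alternatives were a replicate block, each array left out, only the groups compared, cyclic loess, housekeeping centring, a signal minimum of 6, a variance trend with robust fit, array weights, all probe sets and a fold minimum of 1.5. Promoters are from RefSeq (GRCh38.p14).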

Additional observations from a re-analysis of the deposited data

How the results depend on the processing

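Of 369 values of the 9 genes under alternatives, 341 moved by less than the spread between replicates, 25 by more, and 3 changed sign and moved by more, with housekeeping centring: AMOTL2 (−0.022) and LATS2 (−0.12) with JQ1 and LATS2 between the arms (−0.017). LATS2 with RVX-208, near 0, also changed sign, within that spread, when RVX-208 array 3 or DMSO array 2 was left out (0.013 in both fits). No member had another probe set to compare. The number of genes called with JQ1 (4066) was 8940 with housekeeping centring, 654 with a fold minimum of 1.5, and 2565 to 3788 with 1 array left out; among the 144 pathway genes (37) it was 85, 4, and 28 to 38. With RVX-208 (1120) it was 3655 with housekeeping centring, 2067 above a mean log2 signal of 6, 2358 with a variance trend and robust fit, 38 with the fold minimum, and 52 to 756 with 1 array left out; among the 144 genes (6) it was 47, 16, 18, 0, and 0 to 5. Between the arms (1952) it was 250 with the fold minimum and 841 to 1981 with 1 array left out; among the 144 genes (21) it was 1, and 10 to 24, and 35 with the variance trend. The replicate block, for numbers that the labels do not describe as pairs, left 80 genes called with RVX-208 and 0 of the 144, and 1050 and 11 between the arms. Housekeeping centring takes the mean change of the 9 housekeeping genes off every gene. It turned the calls to 885 higher and 8055 lower with JQ1, 290 and 3365 with RVX-208, and 380 and 1990 between the arms. For these counts the cause was not tested. Many calls of named genes were lost in at least 1 fit. In every fit other than the fold minimum, 16 of 26 named genes kept their JQ1 call. For RVX-208 it was 0 of 6, and between the arms 9 of 19.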

Other observations

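The order of CCN2, with all JQ1 arrays above and all RVX-208 arrays below DMSO, was shared by 77 genes. Ranked by the smaller of the 2 differences from DMSO, CCN2 came first and CCN1 next, and SYNM was number 7. Between them stood AHNAK, the gene of a very large membrane-cytoskeleton scaffold (0.26 ± 0.07 log2 units with JQ1 and −0.23 ± 0.06 with RVX-208), MIR197, a microRNA gene (0.21 ± 0.09 and −0.30 ± 0.08), RNF213, a ubiquitin ligase gene (0.20 ± 0.08 and −0.20 ± 0.07), and GPR52. AHNAK, MIR197, RNF213 and GPR52 were singled out after their values were seen. CCN2, CCN1 and SYNM were picked partly on these same values, so nothing is read from their ranks. No test is attached to any of these genes.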
